A study of Mus musculus with 2 samples.

Results

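The genes described here are those of antigen presentation by the major histocompatibility complex (MHC), in gastrocnemius muscle of male C57BL/6 mice with and without its nerve supply. The set lists 10 genes, 5 of the class I route (H2-K1, H2-D1, B2m, Tap1 and Tap2) and 5 of the class II route (H2-Aa, H2-Ab1, H2-Eb1, Cd74 and Ciita). A probe belonged to it when its name on the array, or the current symbol of its transcript accession, was a listed gene. This rule found 17 of the 41174 probes outside the control classes, printed in 44 spots, and these covered 9 of the 10 genes. No probe carried H2-D1 as its name or current symbol. All 17 probes were well above background and unsaturated on both arrays, so no member with a probe was lost to a filter on dim signals.

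The denervated group was a pool of RNA from 6 mice whose muscle had been denervated for 14 days, from 7 weeks of age, and the control group a pool from 6 mice. Both were sampled at 9 weeks, and the control is called a sham control by one label and only a control by another. Each pool went onto 1 array, which leaves every difference without replicates and without a p-value. Both arrays were on one slide and in one scan, and the effects of slide position and of denervation cannot be told apart. The fast-muscle markers of the labelled tissue were bright on both arrays, and the denervation-responsive genes Chrng and Myog differed by 8.37 and 5.34 on the log2 scale, denervated minus control.

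MHC molecules display peptides to T cells. Class I molecules, a heavy chain such as H2-K paired with beta-2 microglobulin, are made by nearly all nucleated cells and carry peptides cut in the cytosol by the proteasome and pumped into the endoplasmic reticulum by the Tap1-Tap2 transporter. Class II molecules, an alpha and a beta chain escorted by the invariant chain Cd74, are made mainly by macrophages, dendritic cells and B cells and carry peptides cut in endosomes. The coactivator Ciita switches on the class II genes. Resting muscle fibres are known for low class I and little class II.

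The class II genes were higher in the denervated pool, by about 2-fold, while the class I genes lay close to 0. The 9 class II probes had log2 differences of 0.86 to 1.48 and the 8 class I probes of -0.35 to 0.20, so the classes did not overlap at any probe. A log2 difference here is the denervated minus the control value of log2 processed signal, after each array was divided by the 75th percentile of its probes. By 1 probe per gene, that of highest mean signal, the class II median was 0.996 and the class I median 0.10, against -0.11 over all 15433 measured genes. The middle 50% of all genes lay between -0.53 and 0.31. A threshold of 2-fold passed close to the class II values, so the count of members past it was unstable. By that probe rule 2 of the 9 measured members, Ciita and H2-Eb1, were at least 2-fold higher, where 6.98% of all measured genes were, and none was 2-fold lower, where 8.52% of all genes were. All 5 class II genes and no class I gene were at least 1.5-fold higher, where 15.0% of all genes were, and no member was 1.5-fold lower, where 22.2% of all genes were. Probes differ in how brightly they report a transcript, so levels of different probes were not compared as amounts of RNA. Signals summed over marker lists, given below, are weighted towards bright probes for the same reason. RNA of a whole muscle was measured, so more cells of a type and more RNA per cell cannot be told apart.

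**Figure D1:**
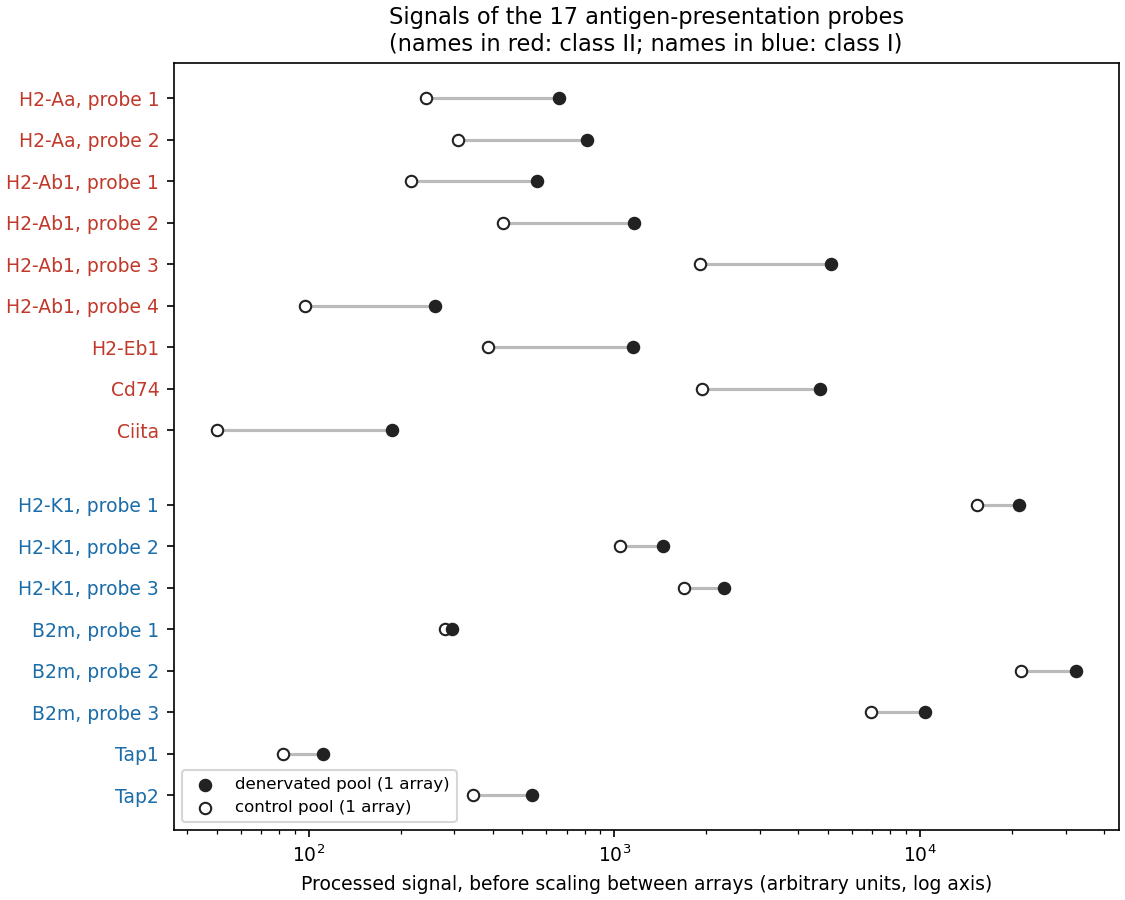
Processed signal of each of the 17 probes on the denervated array (filled) and the control array (open), before scaling between arrays, on a log axis. Every class II pair is 2.44-fold to 3.75-fold apart, and the class I pairs are 1.06-fold to 1.56-fold apart.

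**Figure D2:**
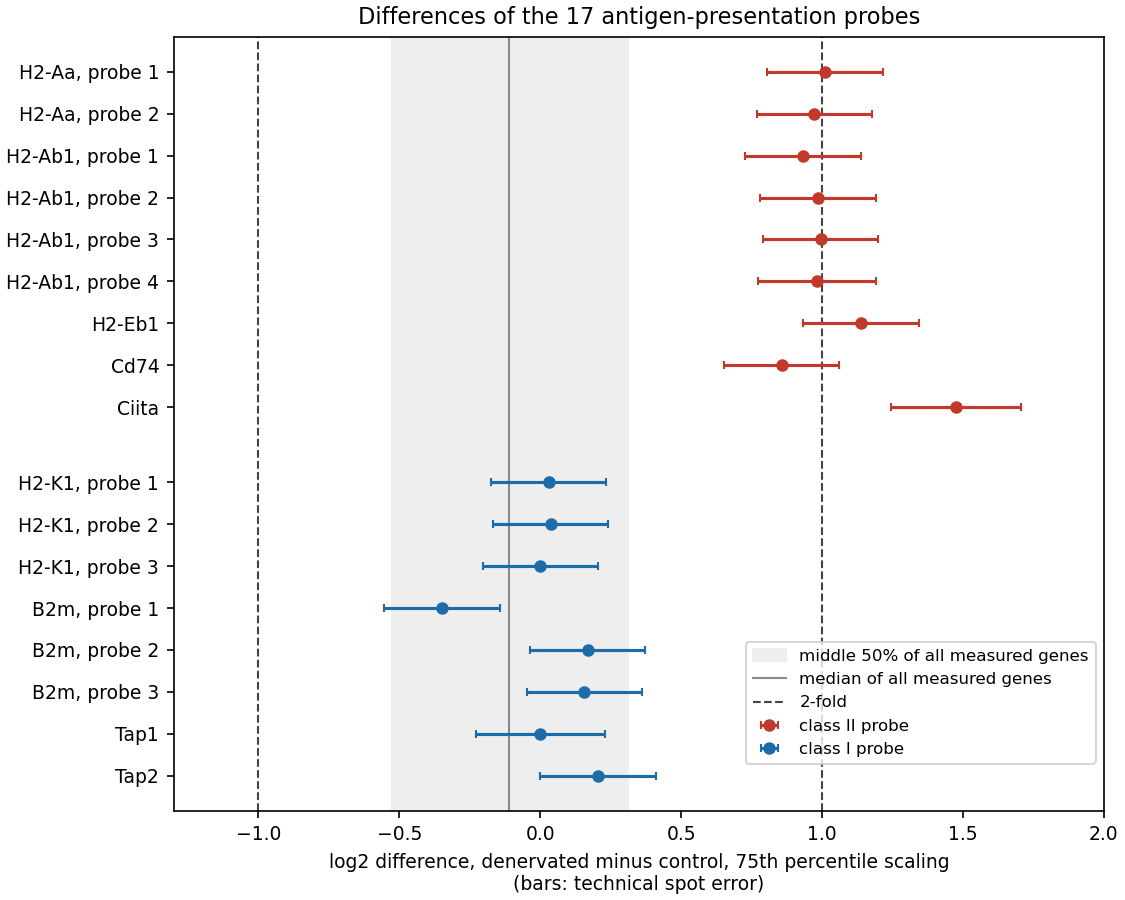
Log2 difference (denervated minus control) of each probe after scaling, with the scanner software's technical spot error as bars. The class II probes cluster at the 2-fold line and the class I probes fall within the middle 50% of all measured genes, which is shaded.

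Promoters of 2 class II and 2 class I genes are shown because the classes differed in the size of their change. RefSeq promoter sequence (assembly GRCm38.p6) was matched by symbol for 6 of the 10 genes, namely H2-K1, H2-D1, B2m, Tap1, H2-Aa and H2-Eb1, and not for Tap2, H2-Ab1, Cd74 or Ciita. Each line gives the 170 bases before the annotated start, 5′ to 3′ on the gene's strand, and capitals mark the motifs found.
H2-Aa (chr17:34287824-34287993, minus strand): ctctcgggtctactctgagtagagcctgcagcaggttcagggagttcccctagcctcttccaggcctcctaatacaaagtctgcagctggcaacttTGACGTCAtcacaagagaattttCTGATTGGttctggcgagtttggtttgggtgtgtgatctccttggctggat
H2-Eb1 (chr17:34305697-34305866, plus strand): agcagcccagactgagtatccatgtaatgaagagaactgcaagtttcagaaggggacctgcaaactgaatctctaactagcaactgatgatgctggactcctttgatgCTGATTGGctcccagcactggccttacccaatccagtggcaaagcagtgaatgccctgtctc
H2-K1 (chr17:34000334-34000503, minus strand): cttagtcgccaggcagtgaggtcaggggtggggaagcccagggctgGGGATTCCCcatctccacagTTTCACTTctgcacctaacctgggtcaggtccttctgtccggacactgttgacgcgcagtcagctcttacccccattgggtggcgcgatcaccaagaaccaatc
B2m (chr2:122147517-122147686, plus strand): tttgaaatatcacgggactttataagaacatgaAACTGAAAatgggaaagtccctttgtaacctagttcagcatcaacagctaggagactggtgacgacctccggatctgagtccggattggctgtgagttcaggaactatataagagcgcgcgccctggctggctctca

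Motifs were searched on both strands of the 250 bases before each start. The Y box of class II promoters, bound by NF-Y and searched as CTGATTGG, lay 51 to 44 bases before the start in H2-Aa and 62 to 55 bases before it in H2-Eb1, in the same orientation. It was present in 3.83% of all 32851 promoter windows. The class I genes H2-D1 and Tap1 held it too, in the opposite orientation, so it did not separate the classes. The cyclic AMP response element TGACGTCA, which lies upstream of the Y box in H2-Aa, was present in 1.55% of windows and absent from these letters in H2-Eb1. The core of the NF-kappaB site of class I promoters known as enhancer A, GGGATTCCC, was found in H2-K1 and H2-D1 and in 0.301% of all windows. The interferon regulatory factor core AANNGAAA was found in H2-K1, H2-D1, B2m and, further upstream than the stretch printed, H2-Aa, and in 21.3% of all windows. None of the 4 motifs overlapped another in these windows. A second annotated start of H2-K1 had the same matches.

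Among the class II chains, H2-Ab1, the beta chain of the I-A molecule, was measured most often, by 4 probes, 1 of them in 10 spots. Its probe with 10 spots gave signals of 1121 to 1208 in denervated muscle and 414 to 454 in control muscle, before scaling. These ranges did not overlap, but neither did those of H2-K1, whose scaled difference was 0.03. The denervated array was brighter, with a 75th percentile of 1063 against 788. After scaling, the spot pairs of the H2-Ab1 probe differed by 0.90 to 1.11. The log2 difference of that probe was 0.99 with an SD over spots of 0.06, which covers printing and scanning on these arrays but not the spread between mice. The brightest H2-Ab1 probe had signals of 5125 and 1905 in the denervated and the control pool, a log2 difference of 0.996 ± 0.20. Here and below the value after ± is the scanner software's technical error carried through both arrays. It is largely fixed by the software's multiplicative error setting of 10%, so bright probes share a value near 0.20. It is not a spread measured between spots. The other probes had 557 and 259 in denervated muscle, against 216 and 97.2 in control muscle, differences of 0.93 and 0.98, so the spread over the 4 probes of this gene was smaller than the technical error of each. They lie on chromosome 17 of the mm8 assembly between 33872973 and 33877368, apart from the probe for a cDNA clone, for which the files list no position.

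H2-Aa, the alpha chain that pairs with H2-Ab1, had 2 probes (chromosome 17, 33892022 to 33892739). The brighter had a signal of 814 in denervated muscle, against 307 in control muscle, a log2 difference of 0.97 ± 0.20. The other had 660 in denervated muscle and 243 in control muscle, a difference of 1.01 ± 0.21. Their differences fell on either side of 2-fold by less than the technical error, and both lay within the technical error of those of the partner chain H2-Ab1.

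H2-Eb1, the beta chain of the I-E molecule, had 1 probe, with a signal of 1148 in denervated muscle and 386 in control muscle. The difference was 1.14 ± 0.20. The array names this probe H2-Eb1 and places it at 33922800 to 33923261 on chromosome 17, outside the H2-Ab1 and H2-Aa positions, but its accession is described in the files as an I-A beta chain of the NOD strain. Which beta chain it reports was not tested. C57BL/6 mice are known to make no I-E at the cell surface because their H2-Ea gene is defective, and the array's H2-Ea probe, looked up after its values were seen, was not well above background on either array.

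Cd74, the invariant chain that blocks the peptide groove until class II molecules reach endosomes, had 1 probe (chromosome 18, 60937790 to 60937847). Its signal was 4720 in denervated muscle and 1932 in control muscle. The difference of 0.86 ± 0.20 was the smallest of the class II genes, and 91.1% of all measured genes lay at or below it.

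Ciita, listed on the array as C2ta, had the largest difference of the 9 members. Its only probe (chromosome 16, 10439788 to 10439847) had a signal of 188 in denervated muscle and 49.98 in control muscle, a log2 difference of 1.48 ± 0.23, or 2.78-fold. The probe was dim: the lowest signal called above background was 17.9 on the denervated array and 14.5 on the control array. With a background correction that adds an offset of 50, its difference was 0.65, the lowest of the class II genes under that correction.

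On the class I side, H2-K1, a classical heavy chain, had 3 probes. The one with 10 spots (chromosome 17, 33606564 to 33606623) gave signals of 20440 to 21991 in denervated muscle and 14786 to 16013 in control muscle, again with no overlap before scaling. After scaling its difference was 0.03 ± 0.20, with an SD over spots of 0.05. The other probes (33609797 to 33610233) had 1449 and 2284 in denervated muscle, against 1046 and 1692 in control muscle, differences of 0.04 and 0.00. Class I heavy chains are close relatives, and H2-K1 probes may also bind transcripts of H2-D1, so the signal cannot be given to H2-K1 alone.

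B2m, the light chain shared by all class I molecules, also had 3 probes (chromosome 2, 121840304 to 121844286). The brightest had 32395 in denervated muscle and 21366 in control muscle, a difference of 0.17 ± 0.20. Its probe with 10 spots had 10204 to 10513 in denervated muscle and 6679 to 7184 in control muscle, a difference of 0.16 with an SD over spots of 0.02. The third probe, designed from a cDNA that the files call unclassifiable, went the other way at -0.35 ± 0.21, or 0.05 when arrays were scaled to the spike-in controls. It had 295 in denervated muscle and 278 in control muscle.

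The transporter genes had 1 probe each. Tap1 had a signal of 111 in denervated muscle and 82.4 in control muscle, a difference of 0.00 ± 0.23 (chromosome 17, 33804121 to 33804180). Tap2 had 536 and 345 in the denervated and the control pool, a difference of 0.20 ± 0.20 (chromosome 17, 33825052 to 33825639), the highest of the class I genes. The differences of H2-K1, B2m and Tap1 by their brightest probes were smaller than their technical errors, and that of Tap2 equalled its error to 2 decimals. That error is largely a software setting, so the comparison does not show whether these genes changed.

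The choice of scaling moved all members together. The denervated array's 75th percentile was 1063 and the control array's 788. Scaling to 8 spike-in probes instead raised every difference by 0.40, to a median of 0.29 over all genes, 1.40 over the class II genes and 0.50 over the class I genes. All 5 class II genes were then at least 2-fold higher, where 14.6% of all genes were. The gap between the class medians does not depend on a scaling that shifts all genes equally and was 0.90. Over the 12 alternatives that give a difference it was 0.79 to 0.98. Each class II gene stayed above 0 in all of them in which it was measured, from 0.65 to 1.91. Class I genes ranged from -0.26 to 0.64, above 0 in 45 of 48 values. By the reported scaling 42.82% of all measured genes were above 0. All settings reprocess the same 2 arrays, so their values are not independent of each other.

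**Figure D3:**
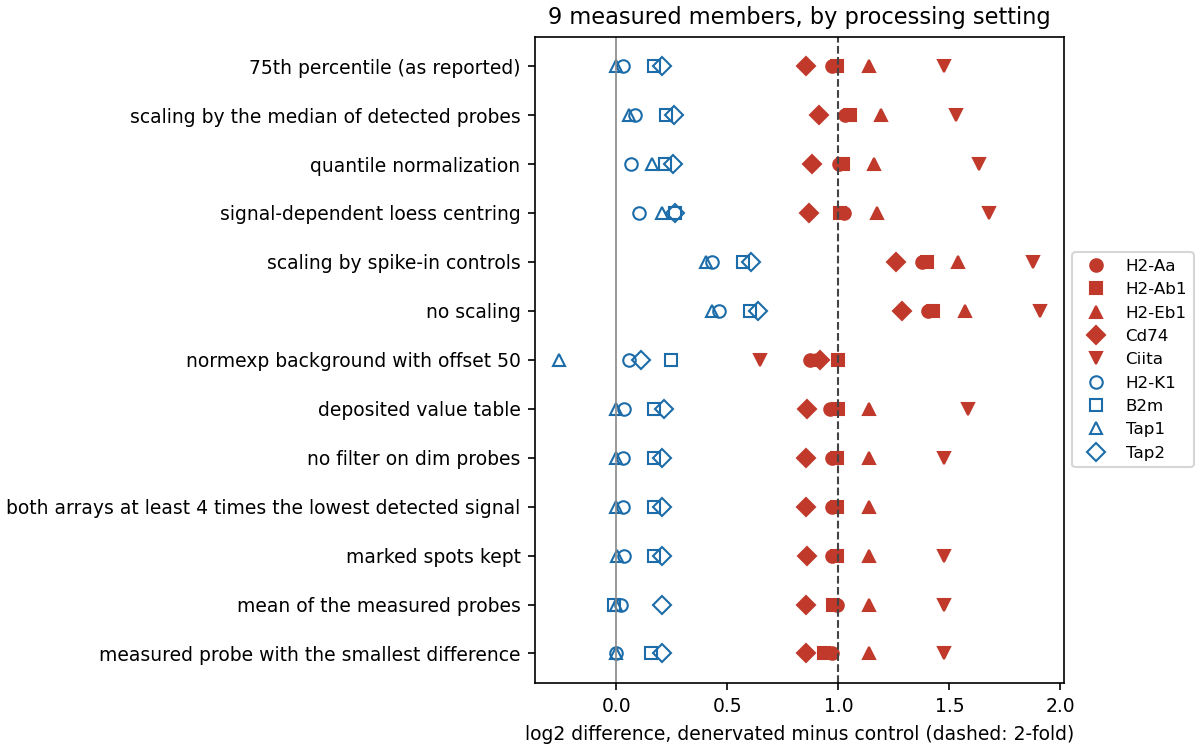
Log2 difference of the 9 measured members under the reported setting and each of 12 alternatives (denervated minus control, 1 point per gene). The class II genes (filled) lie between 0.65 and 1.91 and the class I genes (open) between -0.26 and 0.64, with spike-in scaling and no scaling moving both classes to the right.

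Other genes of the class II route were mostly higher as well. Of 17 listed genes 11 were measured, 5 at least 2-fold higher and none lower, beside 6.98% and 8.52% of all genes. The list's median was 0.71, or 1.11 with spike-in scaling. The endosomal proteases Ctsl (2.12 ± 0.20), Ctss, which trims the invariant chain (1.75 ± 0.20), Lgmn (1.33 ± 0.20) and Ctsd (1.25 ± 0.20) were among the 5. So was March1, a ubiquitin ligase that removes class II molecules from the surface (1.19 ± 0.23). These proteases also work in general lysosomal breakdown. The peptide-loading chaperone genes H2-DMa and H2-DMb1, named after their values were seen, differed by 0.41 ± 0.21 and 0.62 ± 0.20. Their signals were 259 and 831 in denervated muscle, against 144 and 400 in control muscle. The costimulatory ligand gene Cd86 was above background in the denervated pool only, at least 2.01-fold higher there, and H2-Oa likewise, at least 1.67-fold. H2-DMb2, H2-Ob, H2-Eb2 and Cd80 were not well above background on either array.

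Other genes of the class I route spread to both sides of 0. Of 13 listed genes 12 were measured and none passed 2-fold by its brightest probe (median 0.11). Over all genes 6.98% were higher and 8.52% lower. With spike-in scaling 1 listed gene, Canx, was higher, beside 14.6% of all genes (median of the list 0.51). The chaperone Canx was at 0.71 ± 0.20, with another probe at 1.09. The immunoproteasome subunit Psmb10 (-0.95 ± 0.20) and the proteasome activator Psme3 (-0.93 ± 0.20) had the lowest values, -0.55 and -0.53 with spike-in scaling. Signals of Psmb10 were 6933 in denervated muscle and 9916 in control muscle. Of 16 measured non-classical class I genes, none was at least 2-fold higher and 1 was lower, near the 8.52% over all genes. That gene was Mr1, which presents microbial metabolites (-1.04 ± 0.20, or -0.64 with spike-in scaling). H2-T22 (-0.91 ± 0.20) and Procr (-0.62 ± 0.20) followed. Cd1d2 was above background in denervated muscle only, by at least 2.44-fold. The list's median was -0.08, or 0.32 with spike-in scaling. Probes of its H2- genes, which are close relatives, may share signal. Outside the members 46 probes were named H2-, of which 24 were measured and none passed 2-fold in either direction. Over all measured genes, counted by gene and not by probe, 6.98% were higher and 8.52% lower. The 46 probes include those of the listed H2- genes, so they are not a separate set.

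The factors that act on MHC promoters lay mostly below 0 by this scaling and by their brightest probes. Of the 8 factors with a second measured probe, 3 had probes of opposite sign. Of 14 listed factors 12 were measured, none at least 2-fold higher and 1 lower (median -0.33), beside 6.98% and 8.52% of all genes. With spike-in scaling 1 factor was higher, beside 14.6% of all genes, and none lower (median 0.07). The lower factor was Irf8, a regulator of myeloid cells, at -1.09 ± 0.20 (-0.69 with spike-in scaling). It had 787 in denervated muscle and 1238 in control muscle. Nfyb, a subunit of the Y-box factor NF-Y, was at -0.92 ± 0.20. Creb1 was at -0.77 ± 0.20, with its 3 probes between -0.77 and -0.19. Spi1 was above background in the denervated pool only, at least 1.23-fold higher there. Of 21 interferon signalling genes 1 was at least 2-fold higher and 2 lower (median -0.28), beside 6.98% and 8.52% of all genes. With spike-in scaling 3 were higher, near the 14.6% of all genes, and 1 lower (median 0.12). The higher gene by the first scaling was the chemokine Cxcl10 (3.98 ± 0.21), with 3883 in denervated muscle against 183 in control muscle. The lower genes were Ifit3 (-1.56 ± 0.20, or -1.16 with spike-in scaling) and Ifngr2, a chain of the interferon-gamma receptor (-1.03 ± 0.20, or -0.63 with spike-in scaling). Interferon-gamma induces Ciita. Its own gene Ifng, named after its values were seen, was dim, with a signal of 39.4 in denervated muscle and 16.3 in control muscle, a difference of 0.84 ± 0.47.

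Markers of cells that make class II molecules moved unevenly. Of 10 macrophage markers, all measured, 8 were at least 2-fold higher, where 6.98% of all genes were. Their median was 1.53, or 1.93 with spike-in scaling, and 1 was below 0. The summed unscaled signal of the 10 was 56160 in denervated muscle and 14669 in control muscle, most of it Lyz2. Without Lyz2 the other 9 summed to 8908 in denervated muscle and 2152 in control muscle. The largest differences were those of Cd68 (3.53 ± 0.21), Itgam (1.94 ± 0.22) and Adgre1 (1.77 ± 0.20), and the probes of highest mean log2 signal over both arrays were those of Lyz2 (1.48 ± 0.20) and Cd163 (1.14 ± 0.20). Of 10 dendritic cell markers 7 were measured and 2 were at least 2-fold higher, beside 6.98% of all genes, with a median of 0.62. Spike-in scaling made this 4 genes, beside 14.6% of all genes, and a median of 1.02, and 3 were below 0 by both scalings. Of the 4, Zbtb46, named after its values were seen, was at 0.92 ± 0.21 by the reported scaling, with a second probe at -0.33. The summed unscaled signals of the 7 measured genes were 4389 in denervated muscle and 1730 in control muscle, most of it Clec10a. Without it the other 6 summed to 844 in denervated muscle and 563 in control muscle. Such sums do not allow for the brighter denervated array (75th percentile 1063 against 788). The 2 genes past 2-fold were Clec10a, which macrophages also express (1.17 ± 0.20), and Itgax (1.45 ± 0.26, with a second probe at -0.50). Fscn1 was at -0.52 ± 0.21, and Clec9a, Ccr7 and Cd209a were not well above background on either array. Of 7 B cell markers 2 were measured and neither passed 2-fold, beside 6.98% of all genes higher and 8.52% lower. Cd79b was at -0.39 ± 0.23, and Pax5, Cd22 and Blk were not well above background on either array. Ms4a1 and Cd79a were above background in control muscle only, at least 2.03-fold and 1.43-fold higher there by the reported scaling. Spike-in scaling raises every log2 difference by 0.40 and so would lower both bounds. Before scaling the Cd79a signals were close, 19.7 in denervated muscle and 20.9 in control muscle. The part of these cells in the class II difference was not tested.

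Lymphocyte and vessel markers lay mostly below 0 by this scaling. None of the 5 measured T and NK cell markers passed 2-fold, beside 6.98% of all genes higher and 8.52% lower. So few genes cannot be told from all genes by this count. Their median was -0.39, or 0.01 with spike-in scaling, which put 3 of the 5 above 0. Cd8b1 was at 0.49 ± 0.20 and Cd3e at -0.55 ± 0.21. Cd8a was above background in control muscle only, at least 1.43-fold higher there by this scaling, and Cd3d and Ncr1 on neither array. The Cd8a signals before scaling were close, 16.3 in denervated muscle and 18.1 in control muscle, and spike-in scaling would lower that bound. The summed unscaled signals of the 5 measured genes were 2288 in denervated muscle and 1401 in control muscle, most of it Cd8b1. The other 4 summed to 433 in denervated muscle and 425 in control muscle, before any allowance for the brighter denervated array. The neutrophil genes S100a9 (1.37 ± 0.21) and S100a8, at least 301-fold higher, were higher in the denervated pool, while Csf3r and Cxcr2 were not well above background on either array. All 8 endothelial markers were below 0 (median -0.51), where only 42.82% of all measured genes were above it. With spike-in scaling 2 of the 8 were above 0 and the median was -0.11. Kdr was at -1.12 ± 0.20 (-0.72 with spike-in scaling) and was the 1 marker at least 2-fold lower, beside 8.52% of all genes. Cdh5 was at -0.56 ± 0.20. The muscle markers Tnnc2 (-0.50 ± 0.20) and Tnnt3 (-0.21 ± 0.20, or 0.19 with spike-in scaling) belonged to a list whose median was -0.52, or -0.12 with spike-in scaling.

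**Figure D4:**
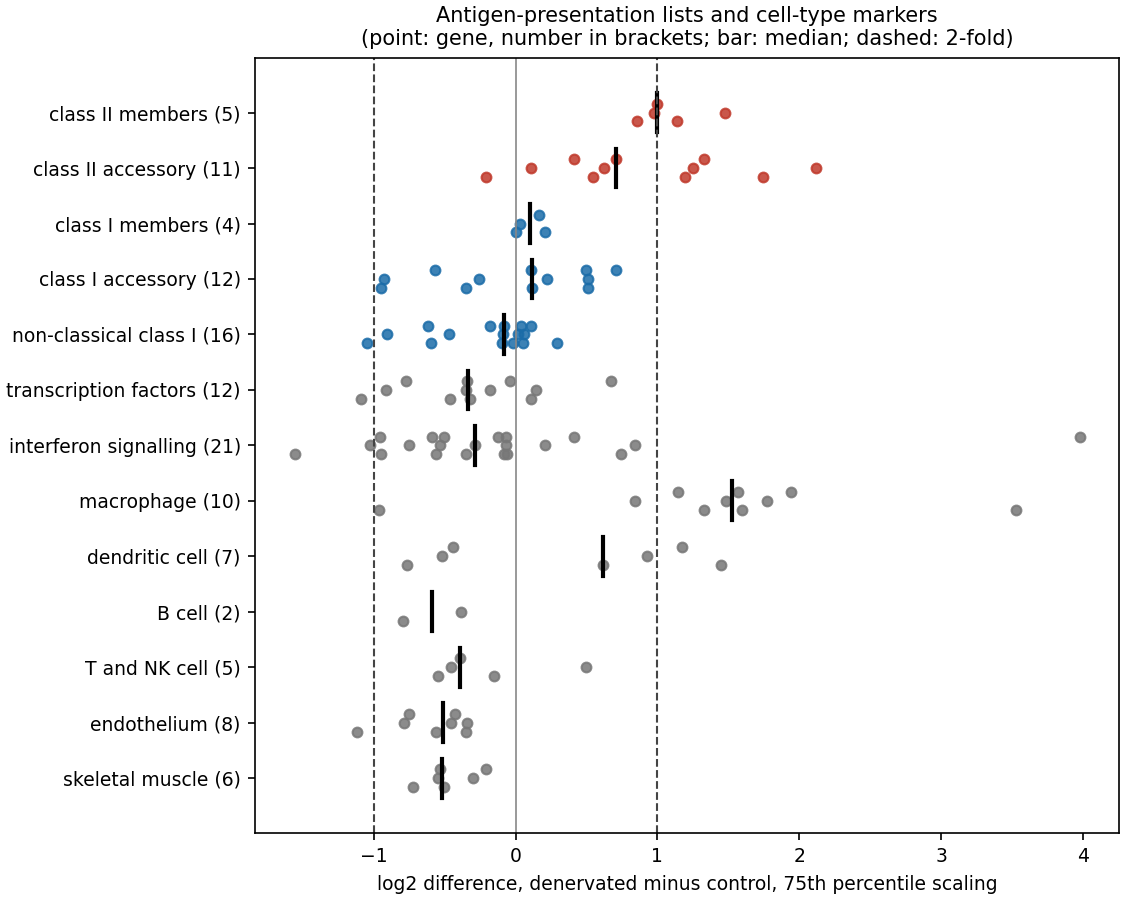
Log2 difference (denervated minus control) of every measured gene of the class II, class I, regulator and cell-type lists, 1 point per gene, with the list median as a bar. The class II members (median 0.996) and the macrophage markers (median 1.53) lie to the right, whereas the class I members (median 0.10) and most lymphocyte markers lie near or below 0 by this scaling.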

How the data were processed

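RNA of 2 pools was measured on 1 Cy3 array each, from 1.65 µg of labelled cRNA per the labels. The spot intensity in the deposited scanner files was extracted with Agilent Feature Extraction (9.5 in the submitters' processing notes, 9.5.3.1 per the file headers), whose headers list spatial and multiplicative detrending, local background correction switched off, and a multiplicative error of 10%. The deposited value table holds a score whose scale is not given in the sources used here. Set against the scanner values it is the intensity scaled so that the 75th percentile over all 45018 spots is 100 (medians 9 denervated, 10 control), and it served as an alternative.

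Spots marked as outliers (81 denervated, 87 control) were left out and the rest averaged per probe as log2 intensity. A probe was measured when it was well above background and unsaturated on both arrays (68.4% of probes denervated and 70.9% control were well above background). The error was the software's spot error, and over 178 probes with at least 8 spot pairs the median SD between spots was 0.07. Bounds set the measured signal against the higher of the dim signal and the array's lowest detected signal. Transcript accessions were matched to RefSeq symbols (GRCm38.p6, names only): 11 of the 17 member probes matched and 6 kept the file's name. The pipeline was tested on simulated data. Alternatives used limma 3.58.1 in R 4.3.3 and Python 3.11.15.

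Genes named were all members, list genes past 2-fold, the 3 largest differences of each pathway list, those above background on 1 array only, and for cell types the 2 brightest and up to 3 past 2-fold. Others are marked, and 1 B cell marker is not reported here. The enhancer A motif was shortened to its core after a longer form had been searched. The members and lists were chosen with earlier results of these data known.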

Additional observations from a re-analysis of the deposited data

How the results depend on the processing

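The count of members at least 2-fold higher was 2, beside 6.98% of all genes. It was 3 with the deposited value table (7.3% of all genes), and 4 with median, quantile or loess scaling (7.59%, 7.98% and 8.14%). It was 5 with spike-in scaling (14.6%), with no scaling (15.5%) or at a 1.5-fold threshold (15.0%). It was 0 with normexp background correction (4.92%) and 1 when both signals had to be at least 4 times the lowest detected (6.78%). The last setting drops Ciita. H2-Aa and H2-Ab1 lie so near the threshold that small shifts carry them over it, and Cd74 passes it with spike-in scaling or no scaling. Under normexp H2-Ab1 was just below it. No member was 2-fold lower in any of the 13 alternatives. The median over the 9 members was 0.86, and was 1.26 with spike-in scaling, 1.29 with no scaling, 0.65 with normexp and 0.53 with the stricter filter. The class II median of 0.996 was 1.40 with spike-in scaling and 1.43 with no scaling, and the class I median of 0.10 was 0.50 and 0.53. Tap1 was -0.26 with normexp and B2m was -0.01 as the mean of its probes. The number of arrays limits precision: 1 per group leaves the spread between mice unknown. No paired analysis was possible because each group has 1 array.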
